A study of Homo sapiens with 17 samples.

Results

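The histone genes of Jurkat cells, a human T cell leukaemia line, were followed under treatment with ILT3.Fc, a fusion of the outer domain of ILT3, an inhibitory receptor, with an antibody Fc part. The members were the 79 of 25548 gene symbols that either begin with HIST1H, HIST2H, HIST3H or HIST4H (72 replication-dependent histone genes) or are H1FX, H2AFX, H2AFZ, H2AFV, H2AFY, H3F3A and H3F3B (7 variant histone genes). Cells received 0, 12.5 or 25 ug/ml ILT3.Fc for 6, 12 or 24 h, which made 9 groups. Each group had 2 libraries, except untreated cells at 12 h with 1, for 17 libraries in all. All groups were the same unmodified line, kept in RPMI-1640 medium with serum, and none is labelled as having received a control Fc protein. Libraries were made from poly(A)-selected RNA, and the deposited values are FPKM (fragments scaled by transcript length and library depth). The labels call the libraries of a group duplicates without saying whether they came from separate cultures, so the p-values below measure the spread between these libraries, which may be technical.

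Histones package DNA into nucleosomes, whose core is made of H2A, H2B, H3 and H4, and H1 linker histones bind the DNA between them. Replication-dependent histone genes lie in clusters and are transcribed mainly in S phase, and their messages usually end after a conserved stem-loop that the protein SLBP binds, with no poly(A) tail. Most variant histone genes lie apart, are transcribed through the whole cell cycle, and give spliced or unspliced messages with ordinary poly(A) tails. H2AFX, counted here as a variant, carries the stem-loop as well. In dividing T cell lines both classes are made, and poly(A) selection therefore sees the classes unequally.

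The stem-loop that defines the first class was searched in the GENCODE release 29 transcripts (GRCh38) and is shown, in capitals with 5 bases on each side, for 5 members the results turn on: the H4 gene called at 24 h, a gene of a duplicated pair, the tested member with the highest time effect in its class, a well detected H2B gene, and the variant that carries the loop as well. All read in the direction of the transcript, on chromosome 6 for HIST1H4E and HIST1H2BD, on chromosome 1 for HIST2H2AA3 and HIST2H2BC, and on chromosome 11 for H2AFX.
HIST1H4E: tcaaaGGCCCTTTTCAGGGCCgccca
HIST2H2AA3: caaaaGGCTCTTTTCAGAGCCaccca
HIST2H2BC: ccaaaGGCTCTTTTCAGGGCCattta
HIST1H2BD: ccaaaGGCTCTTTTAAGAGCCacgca
H2AFX: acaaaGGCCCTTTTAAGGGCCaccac

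The 16-base loop element was found in a transcript model of 33 of the 72 replication-dependent members and of 1 of the 7 variants, H2AFX, against 44 of all 57133 gene names (0.0770%). It took 7 forms, the commonest of them shared by 17 members, HIST2H2AA3 among them. Of the loops shown, those of HIST2H2AA3 and HIST1H2BD lie 35 and 39 bases before the end of the model. Those of HIST1H4E, H2AFX and HIST2H2BC lie 1022, 1044 and 5804 bases before it. Histone models without the loop may end at or close to the stop codon, which was not checked, so a missing loop says only that the letters are not in the model. The sequences AATAAA or ATTAAA, the poly(A) signals, stood in the last 50 bases of a model of all 7 variants and of 24 of the 72 replication-dependent members. Of those 24, 23 also held the loop. Among the 17 replication-dependent members with a mean FPKM of at least 1, 12 had such a poly(A) signal, against 12 of the 55 with a lower mean. A model that ends close to the stop codon can miss the signal as well as the loop, so these counts describe the models.

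The promoters of both classes share motifs. The 150 bases before the transcription start are shown for the most abundant replication-dependent member, its best detected H1 gene and the variant H2AX gene, from RefSeq (GRCh38.p14), with 4 motifs in capitals on either strand: CCAAT (bound by NF-Y), the TATA element TATAAA, the octamer ATTTGCAT (bound by OCT1), and AAACACA, the H1 box. All 3 genes lie on the minus strand, and no capitals of different motifs overlap.
HIST1H2BK, chr6:27146859-27147008: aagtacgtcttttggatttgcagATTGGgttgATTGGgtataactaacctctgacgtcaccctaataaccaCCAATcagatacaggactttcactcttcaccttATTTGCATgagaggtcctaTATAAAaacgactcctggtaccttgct
HIST1H1C, chr6:26056471-26056620: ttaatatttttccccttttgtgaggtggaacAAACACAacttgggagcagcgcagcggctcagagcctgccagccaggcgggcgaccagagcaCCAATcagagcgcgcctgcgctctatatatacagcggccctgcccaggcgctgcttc
H2AFX, chr11:119095466-119095615: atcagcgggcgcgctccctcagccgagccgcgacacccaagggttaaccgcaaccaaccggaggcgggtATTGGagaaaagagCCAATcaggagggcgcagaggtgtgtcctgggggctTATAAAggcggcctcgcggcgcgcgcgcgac

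Over the 250 bases before the start, CCAAT was found in 50 of the 60 replication-dependent promoters whose symbol matched exactly 1 RefSeq gene (83.3%). The same motif was found in 5 of 7 variant promoters (71.4%), against 32.0% of the 35116 promoters used. All 47 H1, H2A, H2B and H3 promoters held it, and 3 of 13 H4 promoters did. The octamer was found in 11 of 16 H2A and 9 of 13 H2B promoters, against 1.63% of all promoters used, and in 1 of the 31 H1, H3 and H4 promoters. That 1, of HIST1H3D, is the same window as the promoter of the H2A gene HIST1H2AD. The H1 box was found in all 6 replication-dependent H1 promoters and in no other histone promoter of the 67 searched, against 4.82% of all. H2A and H2B genes often share a divergent promoter, so these promoters are not independent, and a match is a description of letters.

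Variant messages outweighed the replication-dependent ones by far in these poly(A) libraries. The 7 variants summed to a mean of 1886 FPKM and the 72 replication-dependent members to 54.96 FPKM, which is 2.83% of the histone total. FPKM is per length, so the levels of genes can be set side by side, and this gap describes poly(A)-selected RNA. The order among variants ran from H2AFZ, which encodes the H2A.Z found at promoters and enhancers, with 924 FPKM, through H2AFY (macroH2A, of silent chromatin) with 226 FPKM. H3F3A and H3F3B, which encode the same replication-independent H3, had 194 and 188 FPKM. H2AFV, the second H2A.Z gene, had 167 FPKM. H1FX, a linker histone, had 102 FPKM, and H2AFX, whose product is phosphorylated at DNA breaks, had 84.9 FPKM. H2AFZ alone made up 49% of the variant sum and stood 183 times above the highest replication-dependent member. Over all libraries the ranges of neighbours overlapped from H2AFY (204 to 257 FPKM) through H3F3A (182 to 218) and H3F3B (178 to 204) to H2AFV (150 to 183). They also overlapped between H1FX (76.0 to 141 FPKM) and H2AFX (71.5 to 104 FPKM).

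**Figure D1:**
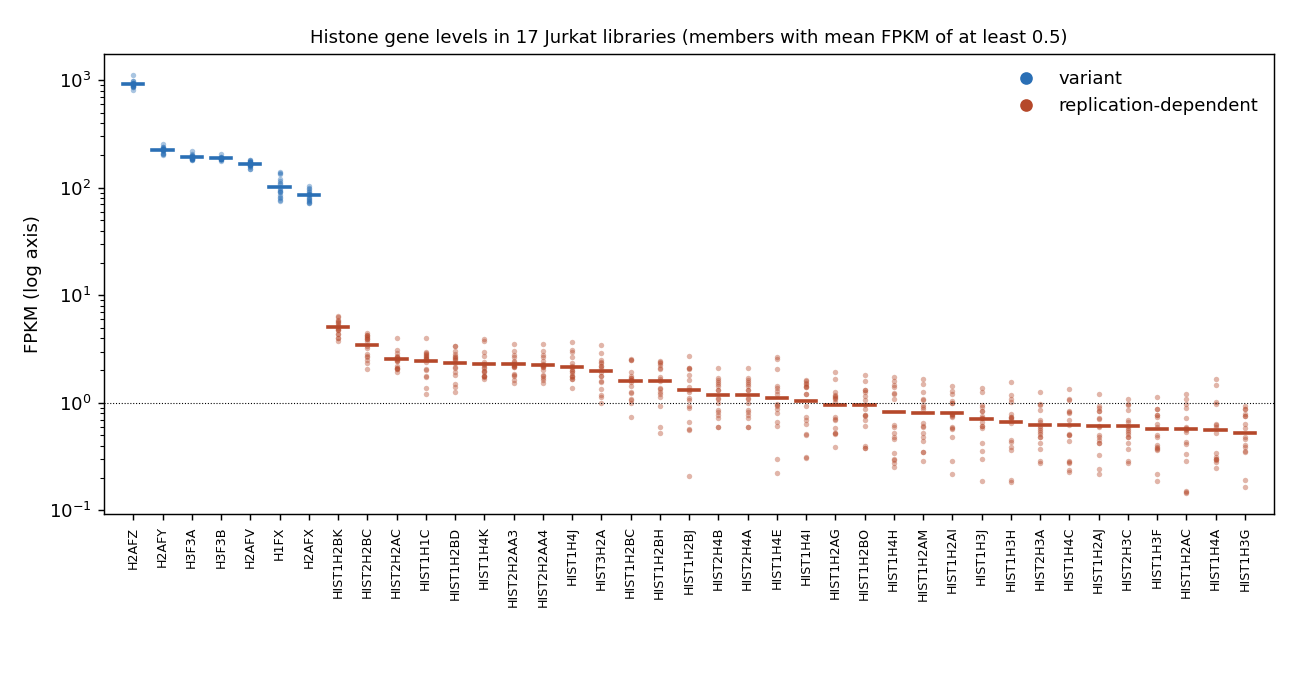
FPKM on a log axis for the 39 members with a mean of at least 0.5; each point is a library (values at or near 0 are not drawn), each bar a mean over 17 libraries, and the dotted line is 1 FPKM. The 7 variants lie above all replication-dependent members, from 924 FPKM for H2AFZ to 84.9 FPKM for H2AFX, and HIST1H2BK follows with 5.06 FPKM.

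Among replication-dependent members HIST1H2BK, an H2B gene, led with a mean of 5.06 FPKM, followed by HIST2H2BC with 3.45 FPKM, which GENCODE lists as a transcribed pseudogene. The core genes HIST2H2AC (2.54 FPKM), HIST1H2BD (2.36), HIST1H4K (2.30), HIST2H2AA3 (2.28), HIST2H2AA4 (2.26), HIST1H4J (2.17), HIST3H2A (1.97), HIST1H2BC (1.61), HIST1H2BH (1.59), HIST1H2BJ (1.32), HIST2H4A and HIST2H4B (1.18 each), HIST1H4E (1.12) and HIST1H4I (1.03) and the linker gene HIST1H1C (2.43) completed the 17 with a mean of at least 1 FPKM. By family these were 6 of 20 H2B, 4 of 17 H2A, 6 of 15 H4, 1 of 6 H1 and 0 of 14 H3 genes. By cluster they were 10 of 55 HIST1, 6 of 13 HIST2, 1 of 3 HIST3 and 0 of 1 HIST4 genes. Another 15 averaged 0.5 to 1 FPKM: HIST1H2AG, HIST1H2BO, HIST1H4H, HIST1H2AM, HIST1H2AI, HIST1H3J, HIST1H3H, HIST2H3A, HIST1H4C, HIST1H2AJ, HIST2H3C, HIST1H3F, HIST1H2AC, HIST1H4A and HIST1H3G. The other 40 were below 0.5 FPKM, and 5 of them were listed at 0 in all libraries: HIST1H2BB, HIST1H2AA, HIST1H3C, HIST1H1T and HIST1H2BA.

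Some of these values are not separate measurements. HIST2H4A and HIST2H4B had the same FPKM in all 17 libraries, HIST2H3A and HIST2H3C in 16, and HIST2H2AA3 and HIST2H2AA4 in 14. HIST1H4J lay within 2% of HIST1H4K in 13 libraries. These pairs are near-identical copies whose reads may have been shared or split, so their values are uncertain, and each pair counts below as 2 members although it may be 1 signal.

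Few fragments stand behind the replication-dependent values. For 41 of the 57 such members above 0 in at least 8 libraries, all values were whole multiples of a step within 0.1 of a fragment, which gives fragment numbers per library. No resolved member had more than 51 fragments in a library, HIST1H1C spanned 13 to 51, and HIST1H4E spanned 0 to 10. Fragment numbers were read for this class only. Testing was therefore done for the 24 members with a mean of at least 1 FPKM (17 replication-dependent, 7 variant), within a fit of limma across all 12015 genes at or above that mean, on log2(FPKM + 1), which understates the change of low genes. A gene is called at a Benjamini-Hochberg adjusted p under 0.05 over all 12015 genes, and differences below are on that log2 scale.

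After 24 h with 25 ug/ml ILT3.Fc, the summed FPKM of both histone classes was lower than in untreated cells. The 72 replication-dependent members summed to 45.0 and 45.8 FPKM in cells given 25 ug/ml, against 72.5 and 73.1 FPKM in untreated cells. The dose between them gave 58.9 and 57.6 FPKM, and the 3 doses did not overlap at 24 h. The ratio of the means, 25 ug/ml over untreated, was 0.623 at 24 h, 0.867 at 6 h and 0.913 at 12 h. The untreated means were 57.6 FPKM at 6 h, 51.3 at 12 h (1 library) and 72.8 at 24 h. At 25 ug/ml the means were 50.0, 46.8 and 45.4 FPKM. The gap at 24 h thus went with a higher sum in the untreated 24 h libraries than at 6 or 12 h, more than with a lower sum at 25 ug/ml. In fragments, the 41 resolved members totalled 155 and 156 in the 25 ug/ml libraries at 24 h, against 262 and 258 in the untreated libraries, whose relative depths were close (0.783 and 0.752 against 0.813 and 0.783 of the deepest library). In bulk RNA, fewer cells in S phase and less histone RNA per cell cannot be told apart.

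All 5 families had a lower sum at 24 h. The ratio of 25 ug/ml over untreated was 0.623 for H1, 0.585 for H2A, 0.666 for H2B, 0.595 for H3 and 0.615 for H4. At 6 h the same ratios ran from 0.637 for H1 to 1.07 for H3, and at 12 h from 0.784 for H2B to 1.16 for H3. The variant sum moved less, with ratios of 0.942 at 6 h, 0.932 at 12 h and 0.906 at 24 h. At 24 h it was 1789 and 1760 FPKM in cells given 25 ug/ml, against 1943 and 1974 FPKM in untreated cells, with no overlap.

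**Figure D2:**
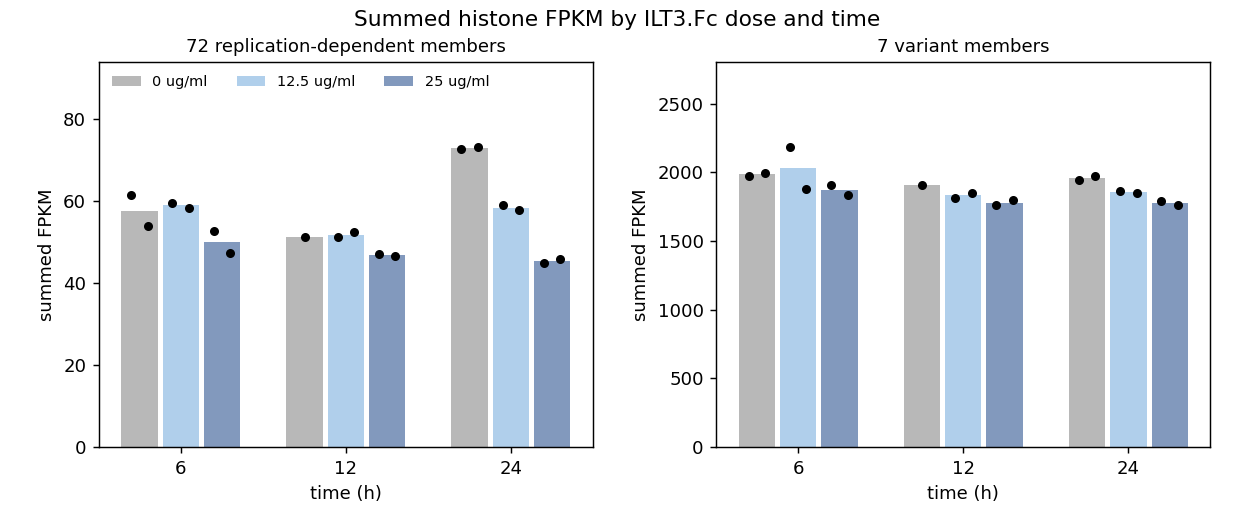
Summed FPKM of the 72 replication-dependent members (left) and the 7 variant members (right) by time and ILT3.Fc dose; bars are group means from 0 and points are libraries. At 24 h the replication-dependent sum is lower at each higher dose, with 45.0 and 45.8 FPKM at 25 ug/ml, against 72.5 and 73.1 FPKM untreated.

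RNAs that normally have no poly(A) tail were read beside this class, and they did not move as 1 group. The summed FPKM of the SNORA, SNORD and SCARNA symbols (small nucleolar and Cajal body RNAs) was 6892 and 6810 in the 25 ug/ml libraries at 24 h, against 6698 and 7171 in the untreated ones, a ratio of 0.988 with overlapping groups. Of 7 other such RNAs above 0 in all libraries, 5 were lower at 25 ug/ml at 24 h without overlap, with ratios of 0.430 to 0.571. Of all genes tested, 23.1% were lower without overlap and 16.5% were called at 24 h. RN7SL1, an RNA of the signal recognition particle, had 107.9 and 91.2 FPKM at 25 ug/ml, against 202.9 and 150.6 FPKM in untreated cells (-0.81, SE 0.25, limma adjusted p = 0.0460). Untreated RN7SL1 was lower at the earlier times, with 87.9 and 77.8 FPKM at 6 h and 72.2 FPKM at 12 h. At 12.5 ug/ml and 24 h RN7SL1 had 186.8 and 119.6 FPKM, which overlapped the untreated libraries. Its near-identical copy RN7SL2 was called lower as well (-0.80, SE 0.24, limma adjusted p = 0.0468), and reads may be split between the pair. Both are counted among the 5 although they may be 1 signal. RMRP, RPPH1 (the RNA of RNase P) and RNU1-1 had ratios of 0.563, 0.430 and 0.539 and did not pass. In untreated cells RMRP had 15.9 and 18.0 FPKM at 24 h, against 7.40 and 6.71 FPKM at 6 h. Untreated RPPH1 had 15.4 and 11.3 FPKM at 24 h, against 3.12 and 5.09 FPKM at 6 h. Untreated RNU1-1 overlapped between these times, with 10.3 and 17.6 against 14.7 and 8.26 FPKM. RN7SK overlapped between the groups (0.887) and MALAT1 was not lower (1.07). The ratios of these 5 were 0.985 to 1.31 at 6 h, and at 12 h 0.382 for RMRP, 4.16 for RNU1-1 and 0.810 to 0.955 for the other 3. At 24 h the replication-dependent sum was thus lower in the same libraries as 5 of these RNAs, while the small nucleolar and Cajal body sum overlapped, and the part of RNA without poly(A) tails in the difference was not tested.

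Of the single members, 2 were called at 24 h, both lower at 25 ug/ml, in a comparison where 16.5% of all genes tested were called: H2AFV, 1 of 7 variants, and HIST1H4E, 1 of 17 replication-dependent members. H2AFV had 150 and 151 FPKM at 25 ug/ml, against 164 and 173 FPKM in untreated cells (-0.17, SE 0.033, limma adjusted p = 0.00816). Its groups did not overlap, and the call was lost without untreated replicate 2 at 24 h (limma adjusted p = 0.0850). A fit of the 24 h libraries of these 2 doses alone called none of the 24 members, and 0.0999% of all genes. In lane 4 alone H2AFV and HIST1H4E kept their differences but not their calls (limma adjusted p = 0.0589 and 0.0766).

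HIST1H4E was listed at 0.00 and 0.30 FPKM in cells given 25 ug/ml, against 1.38 and 2.58 FPKM in untreated cells (-1.36, SE 0.33, limma adjusted p = 0.0195). In fragments this is 0 and 1 against 5 and 9, and the 12.5 ug/ml libraries, with 10 and 3, overlapped the untreated ones. The call was lost without untreated replicate 2 at 24 h (-1.06, limma adjusted p = 0.156) and without either 25 ug/ml library at 24 h (limma adjusted p = 0.0814 and 0.0625). The other 22 members tested did not pass. An unadjusted limma p under 0.05 was reached by 8 of the 24, against 3874 of all 12015 genes tested.

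The direction at 24 h was shared more widely than the calls. The difference was below 0 in 16 of 17 replication-dependent members (median -0.40) and in 7 of 7 variants (median -0.15), against 40.8% of all genes tested (median 0.04). Both 25 ug/ml libraries lay below both untreated libraries in 13 of the 17 replication-dependent members (76.5%) and 6 of the 7 variants, against 23.1% of all genes tested. Over all 72 replication-dependent members, with those below the level tested, they lay below in 25 (34.7%) and above in 2. The share over all genes of any level was not computed, so this 34.7% has no like share beside it. Among the members tested, the exception in sign was HIST2H2BC, the pseudogene, with 4.25 and 4.03 FPKM at 25 ug/ml, against 4.10 and 3.74 FPKM in untreated cells.

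Among the 17 tested replication-dependent members the largest differences after HIST1H4E were in low H2B genes and had wide errors. HIST1H2BJ had 1.06 and 1.11 FPKM at 25 ug/ml, against 2.73 and 2.12 FPKM in untreated cells at 24 h (-0.71, SE 0.40, limma adjusted p = 0.246). HIST1H2BH had 1.34 and 0.93 FPKM, against 2.36 and 2.46 FPKM in untreated cells (-0.68, SE 0.27, limma adjusted p = 0.111). In both genes the groups did not overlap, yet the test across all genes was missed.
HIST1H2BK, the most abundant of its class, had 4.73 and 4.05 FPKM, against 6.24 and 5.26 FPKM in untreated cells (-0.32, SE 0.12, limma adjusted p = 0.0991). HIST2H2AA3 and its copy HIST2H2AA4 both had -0.49 (SE 0.18). The H2AX gene H2AFX had 76.6 and 90.9 FPKM, against 104 and 96.8 FPKM in untreated cells (-0.26, SE 0.084, limma adjusted p = 0.0542). It was called at 24 h with a GC and length correction (-0.44, limma adjusted p = 8.00e-05) and without the 2 libraries that stood apart, named below (-0.39, 0.0122). H1FX, at -0.19 and not called (limma adjusted p = 0.222), was called in the same fits (-0.38, 0.00221, and -0.35, 0.00876).

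**Figure D3:**
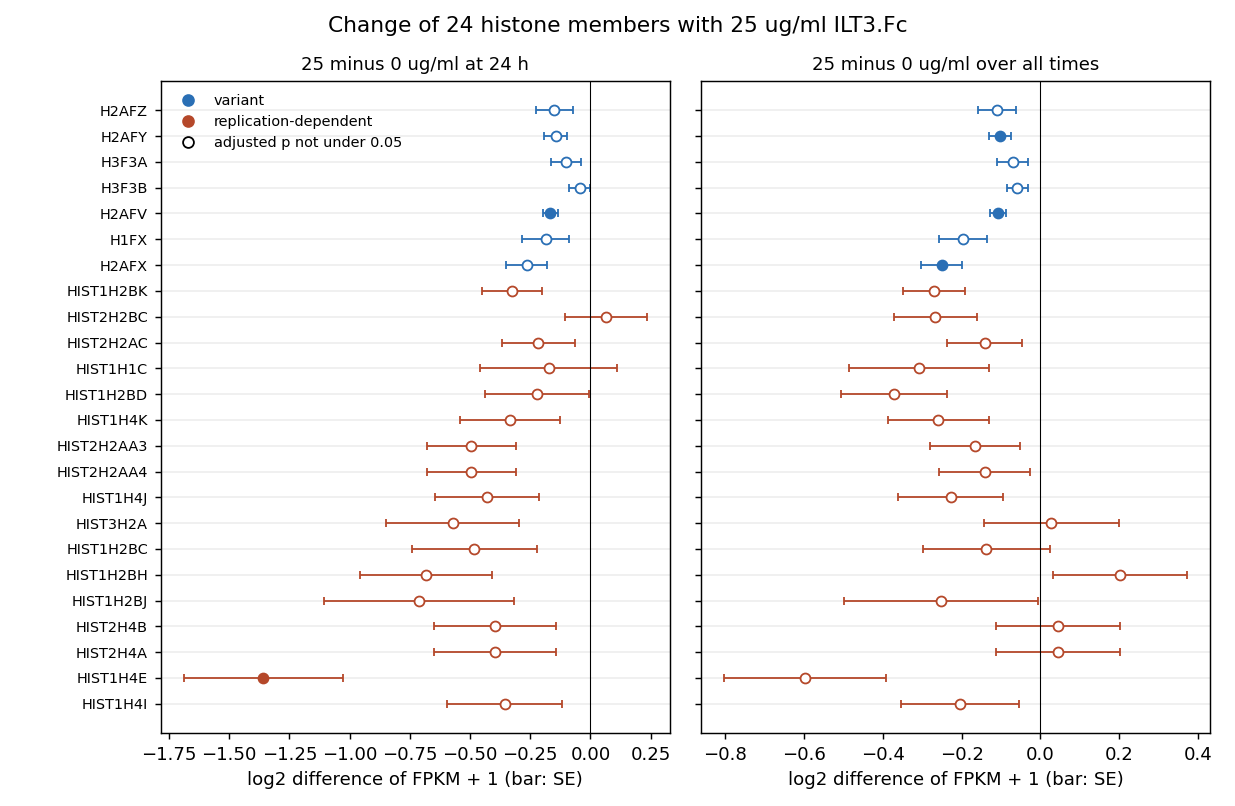
Log2 difference of FPKM + 1, 25 minus 0 ug/ml, with its standard error for the 24 members tested, at 24 h (left) and over all times (right); filled points have a limma adjusted p under 0.05. At 24 h only HIST2H2BC lies above 0, and the filled points are H2AFV and HIST1H4E.

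Members below the level tested mostly had the same direction at 24 h. Where genes of any level above 0 were tested, the difference was below 0 in 42 of the 50 replication-dependent members under that level (median -0.22, all genes 0.005), and 3 of the 50 were called lower, where 7.76% of all 20258 genes were called. HIST1H3J, an H3 gene, had 0.36 and 0.19 FPKM at 25 ug/ml, against 1.38 and 1.25 FPKM in untreated cells (-0.87, SE 0.14, limma adjusted p = 0.00707). The linker genes HIST1H1B (-0.68, SE 0.13) and HIST1H1D (-0.44, SE 0.11) were also called lower there, with limma adjusted p of 0.0136 and 0.0412. These 3 rest on at most 17 fragments in a library where fragments could be resolved, and they were singled out after their values were seen.

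Over all times together, 3 variants and no replication-dependent member were called lower at 25 ug/ml than in untreated cells, where 9.47% of all genes tested were called. H2AFX had a log2 difference of -0.25 (SE 0.053, limma adjusted p = 0.0150), H2AFV of -0.11 (SE 0.020, 0.00881) and H2AFY of -0.10 (SE 0.029, 0.0477). The H2AFY call was lost in 15 of the 17 fits that left out 1 library, and those of H2AFX and H2AFV in 0 of 17. H2AFX had 77.9 and 75.3 FPKM at 25 ug/ml, against 87.996 and 93.5 FPKM in untreated cells at 6 h. At 12 h it had 72.7 and 71.5 FPKM at 25 ug/ml, against 85.7 FPKM in untreated cells. The H2AFX groups did not overlap at any of the 3 times.

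The other 4 variants did not pass: H2AFZ at -0.11 (SE 0.048), H1FX at -0.20 (SE 0.061), H3F3A at -0.07 (SE 0.040) and H3F3B at -0.06 (SE 0.027), with limma adjusted p from 0.0687 to 0.290. None of the 17 replication-dependent members passed in limma, and 4 had an unadjusted p under 0.05, against 3116 of all 12015 genes tested. The median of the 17 was -0.20, against -0.11 for variants and 0.02 for all genes. HIST1H2BK came closest (-0.27, SE 0.078, limma adjusted p = 0.0526). The difference was below 0 in 13 of 17 replication-dependent and 7 of 7 variant members, against 42.7% of all genes. Those above 0 were HIST1H2BH (0.20, SE 0.17), HIST2H4A and HIST2H4B (0.04, SE 0.16) and HIST3H2A (0.03, SE 0.17).

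The calls over all times depended on which libraries entered the fit. Without the 2 libraries that stood apart from the rest (12.5 ug/ml at 6 h replicate 1 and 25 ug/ml at 24 h replicate 2, an alternative chosen after seeing the data), 6 members were called in place of 3, and 15.2% of all genes in place of 9.47%. The additions were H1FX (-0.25), H2AFZ (-0.09) and HIST1H2BD (-0.46). Within sequencing lanes no member was called, in fits that called 0.0416% of all genes in lane 4 alone and 0.0832% in lane 5 alone. The replication-dependent median was -0.31 in lane 4 and -0.14 in lane 5, and the variant median -0.12 and -0.09. All 24 h libraries were in lane 4 and all 12 h libraries in lane 5. Without the 24 h libraries no member was called, nor were more than 0.383% of all genes.

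**Figure D4:**
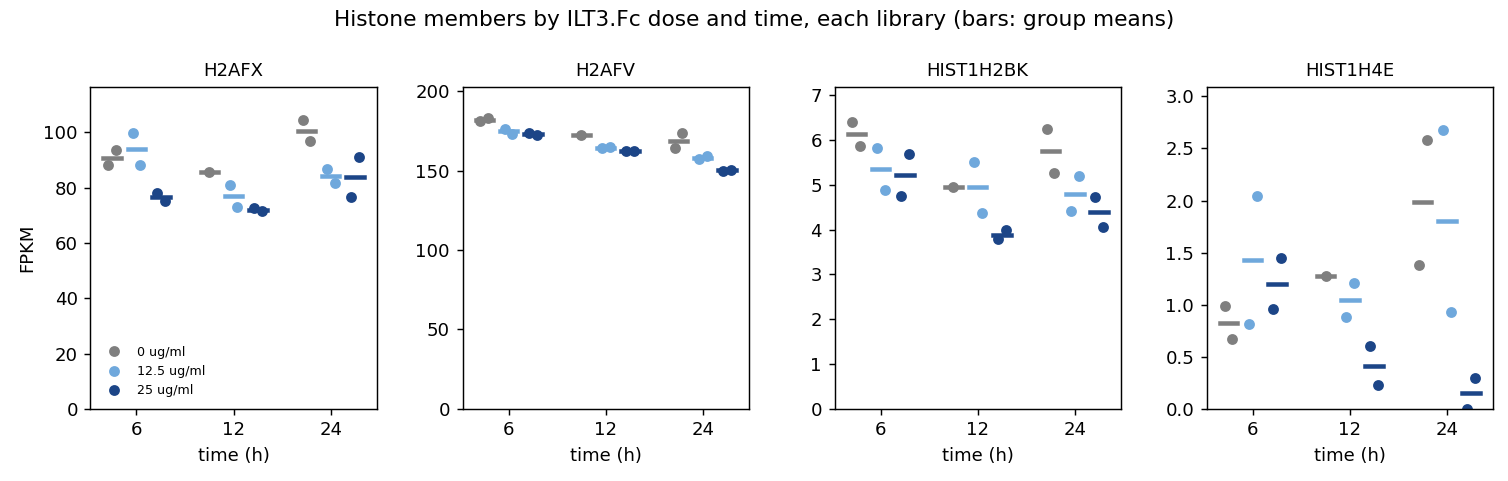
FPKM of 4 members in each library by time and ILT3.Fc dose; points are libraries and bars group means, on axes from 0. H2AFV at 24 h has 150 and 151 FPKM at 25 ug/ml, against 164 and 173 FPKM untreated, and HIST1H4E shows the scatter of a gene with 0 to 10 fragments.

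At 6 h and at 12 h alone limma called no member for 25 ug/ml against untreated, in comparisons where 0.225% and 0.0499% of all genes tested were called. An unadjusted p under 0.05 was reached by 4 and 3 of the 24 members, against 1239 and 1034 of all 12015 genes tested. At 6 h all 7 variants had both 25 ug/ml libraries below both untreated ones and 4 of 17 replication-dependent members did, against 25.9% of all genes tested. The replication-dependent median was -0.10 at 6 h and 0.01 at 12 h, and the variant median -0.07 and -0.09.

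The effect at 24 h was then set against that at 6 h. Limma called none of the 24 members for that difference, where 3.3% of all genes tested were called. An unadjusted p under 0.05 was reached by 3 members, all replication-dependent, against 2603 of all 12015 genes tested. The median of this difference was -0.21 for replication-dependent members and -0.05 for variants.

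At 12.5 ug/ml over all times limma called no member against untreated cells, where 0.283% of all genes tested were called. There 3 members had an unadjusted p under 0.05, against 1315 of all 12015 genes tested. Between 25 and 12.5 ug/ml no member was called in limma, and 0.283% of all genes were called in that comparison too. Here 3 members had an unadjusted p under 0.05, against 1427 of all 12015 genes tested. The 12.5 ug/ml medians against untreated cells were -0.01 for replication-dependent members and -0.05 for variants. At 24 h alone the replication-dependent sum at 12.5 ug/ml was 0.800 of the untreated sum, and at 6 h and 12 h it was 1.02 and 1.01. The comparisons of the 2 doses share the untreated libraries.

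Variants differed between times in both directions. Between 24 and 6 h over all doses 5 members were called, where 25.2% of all genes tested were called. H1FX was higher at 24 h (0.40, SE 0.057, limma adjusted p = 8.00e-04), with 136 and 141 FPKM in untreated cells at 24 h, against 95.5 and 99.4 FPKM at 6 h. At 25 ug/ml H1FX had 108 and 137 FPKM at 24 h, against 91.1 and 82.9 FPKM at 6 h. The times did not overlap at either dose.
H2AFV (-0.15, SE 0.019, limma adjusted p = 3.89e-04), H2AFY (-0.15, SE 0.027, 0.00278) and H2AFZ (-0.13, SE 0.045, 0.0481) were lower at 24 h. H2AFV had 150 and 151 FPKM at 24 h, against 173 and 172 FPKM at 6 h, in cells given 25 ug/ml, with no overlap. H3F3A (-0.004, SE 0.037), H3F3B (-0.02, SE 0.025) and H2AFX (0.04, SE 0.049) did not pass.

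In the replication-dependent class HIST2H2BC alone was called between 24 and 6 h, higher by 0.30 (SE 0.098, limma adjusted p = 0.0452). In untreated cells it had 4.10 and 3.74 FPKM at 24 h, against 4.31 and 4.21 FPKM at 6 h. At 25 ug/ml it had 4.25 and 4.03 FPKM, against 2.68 and 2.34 FPKM at 6 h. So the 24 h libraries were lower than the 6 h ones in untreated cells and higher at 25 ug/ml, and the groups overlapped at neither dose. The call was lost in 13 of the 17 fits without 1 library, that of H2AFZ in 14, and that of HIST2H2BC also without the 2 libraries that stood apart (limma adjusted p = 0.122). The class median was 0.02, against -0.02 for variants. That median is taken over doses whose class sums differed in direction. The mean sum at 24 h, against 6 h, was 72.8 against 57.6 FPKM in untreated cells. It was 58.3 against 58.9 FPKM at 12.5 ug/ml and 45.4 against 50.0 FPKM at 25 ug/ml.
HIST1H4H, below the level tested, also differed with time and was singled out after its values were seen. It had 0.25 to 0.49 FPKM in the 6 libraries at 6 h, 0.46 to 1.23 in the 5 at 12 h and 1.09 to 1.75 in the 6 at 24 h, with no overlap between 6 and 24 h at any dose. In fragments this is 1 or 2 per library at 6 h and 4 to 6 at 24 h. Tested with genes of any level, it was higher at 24 than at 6 h by 0.87 (SE 0.094, limma adjusted p = 6.10e-04), the 1 replication-dependent call of 67 in a fit where 13.8% of all genes were called.

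**Figure D5:**
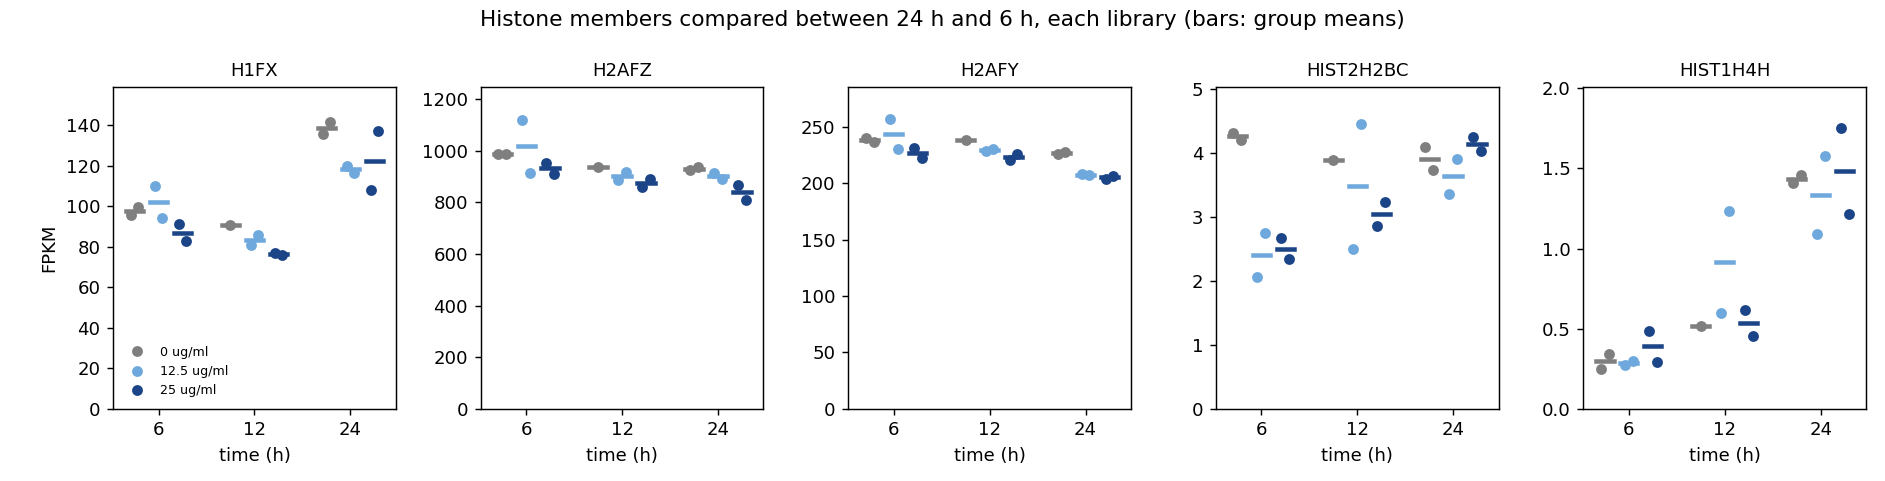
FPKM of 5 members in each library by time and ILT3.Fc dose; points are libraries and bars group means, on axes from 0. H1FX and HIST1H4H are higher at 24 h at every dose, and HIST2H2BC has 4.25 and 4.03 FPKM at 24 h, against 2.68 and 2.34 FPKM at 6 h, at 25 ug/ml.

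Between 12 and 6 h over all doses limma called no member, where 3.03% of all genes tested were called. There 5 members had an unadjusted p under 0.05, against 2454 of all 12015 genes tested. The medians were -0.10 for replication-dependent members and -0.08 for variants. The 24 h libraries were all sequenced in lane 4 and the 12 h libraries in lane 5, while each 6 h group had a library in each lane. With lane 4 alone no member was called between 24 and 6 h, and H1FX had 0.35 (limma adjusted p = 0.0751).

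Genes that make, process or load histones were read from lists. Of 29 tested genes of histone mRNA processing and decay, SLBP, LSM10 and LSM11 of the U7 particle among them, limma called none for 25 ug/ml over all times. An unadjusted p under 0.05 was reached by 9 of the 29, against 3116 of all 12015 genes tested. The counts of this list were below the shares of all genes, with 0 of 29 against 9.47% over all times, 3 of 29 against 16.5% at 24 h and 6 of 29 against 25.2% between 24 and 6 h. At 24 h alone UPF1, a helicase of RNA decay, was higher (0.19), and CSTF2T and CPSF2, of 3′ end cleavage, were lower (-0.18 and -0.24). Between 24 and 6 h 3 were higher, NCBP1, LSM10 and LSM11 (0.11, 0.17 and 0.18), and 3 lower, SRRT, ZNF473 and NCBP2 (-0.16, -0.16 and -0.19). NCBP1 and NCBP2 form the cap-binding complex, and ZNF473 binds the U7 particle.

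Of 34 tested chaperones and deposition factors, 6 were lower and 1 higher with 25 ug/ml over all times, where 9.47% of all genes were called. At 24 h 9 of 34 were called, against 16.5% of all genes, and between 24 and 6 h 10 of 34, against 25.2%. The lower ones by smallest p were ANP32E, which removes H2A.Z from chromatin (-0.20, SE 0.035), HJURP, the CENP-A chaperone (-0.12, SE 0.021), DEK (-0.17, SE 0.040) and HIRA, which deposits the replication-independent H3 (-0.10, SE 0.024), with limma adjusted p of 0.00645 to 0.0237. CDAN1, which binds the chaperone ASF1, was higher (0.12, SE 0.033, limma adjusted p = 0.0431). At 24 h alone 2 were higher, CDAN1 (0.31) and TONSL (0.37), and 7 lower, first ANP32E (-0.37), DEK (-0.32), ASF1A (-0.23) and RUVBL1 (-0.22). Between 24 and 6 h 4 were higher (CABIN1, DAXX, CDAN1 and ASF1B, 0.11 to 0.17) and 6 lower, first ANP32E, RBBP4, NASP and RUVBL1 (-0.20, -0.13, -0.16 and -0.15).
Of the 2 tested histone genes outside the rule, CENPA, the centromeric H3, was lower with 25 ug/ml over all times (-0.33, SE 0.026, limma adjusted p = 8.96e-05). In that comparison 9.47% of all genes were called. CENPA was also lower with 12.5 ug/ml over all times (-0.15, SE 0.026, limma adjusted p = 0.0496), where 0.283% were called. It was listed with earlier results of these data known, so this is no separate evidence. Of 17 transcription factors and kinase genes of histone genes, 2 were lower with 25 ug/ml over all times. They were NFYB, a subunit of the CCAAT-binding factor (-0.12, SE 0.031, limma adjusted p = 0.0373), and E2F3 (-0.09, SE 0.023, 0.0389). These 2 of 17 stand against 9.47% of all genes, and 4 of 17 at 24 h and 6 of 17 between 24 and 6 h against 16.5% and 25.2%. At 24 h alone NFYB (-0.32) and E2F3 (-0.13) were lower, and POU2AF1 (0.25) and E2F1 (0.15) were higher. Between 24 and 6 h YY1 and TRRAP were higher (0.16 and 0.28), and NFYB, E2F1, E2F3 and NFYA were lower (-0.25, -0.22, -0.09 and -0.08).

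The libraries were alike in broad measures. FPKM summed to 504363 to 557389 per library and 11842 to 12016 genes reached 1 FPKM. Relative depth, read from the steps of low genes, was 0.671 to 1 of the deepest library. The library with the highest sum, 12.5 ug/ml at 6 h replicate 1, had a Spearman correlation of -0.601 between gene length and its deviation from the mean, and 25 ug/ml at 24 h replicate 2 had 0.571 with GC content. Their part in the differences was not tested beyond the fits without them and the fits with the GC and length correction. All 12 T cell markers were above 1 FPKM, and of 13 markers of other lineages CD79A alone averaged above it.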

How the data were processed

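RNA-seq of 17 Jurkat libraries was analysed, grouped by the labels into 9 dose and time groups. The deposited values are FPKM; reads were aligned with TopHat2 2.1.0, per the submitters' processing notes, after poly(A) selection, per the labels' protocols. For the quantifier, build and annotation, nothing is stated in the sources read here. No read counts were used, so fragment numbers come from the steps of low values and describe only. Of 25593 lines, 45 repeat a symbol; of repeats only that with the greatest average entered, leaving 25548 symbols. Genes with a mean of at least 1 FPKM were tested with limma 3.58.1 (R 4.3.3; 1 mean per group, variance trend, 8 residual degrees of freedom) on log2(FPKM + 1), two-sided, Benjamini-Hochberg over all genes. On simulated data with 200 of 12015 genes changed, the test of 25 against 0 ug/ml over all times recovered 66.6% of log2 changes of 0.25 and 93.8% of 0.5, and the test at 24 h 30.1% and 78.1%. The changed genes were drawn at random from all genes tested, with normal noise. Recovery was not computed for the replication-dependent members, which rest on few fragments, so these rates are not theirs. All members with a mean of at least 1 FPKM are named with values and those of 0.5 to 1 are named; of other lists, called genes are named, at most 4 per list and direction by smallest p. The results of 1 further variant histone gene are not reported here. Members and lists were chosen with earlier results of these data known. No 2 libraries shared more than 0.449% of their tested values, so none was taken as a copy. Alternatives were the pseudocount, filter, scaling, variance model, lane, times, GC content and length, replicate block and leaving out libraries.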

Additional observations from a re-analysis of the deposited data

How the results depend on the processing

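No called member change reversed under 33 alternative settings, 17 of which left out 1 library, while medians near 0 changed sign (below); of 314 refits of the 10 called member changes, 234 kept the call and 80 lost it. Members called for 25 against 0 ug/ml over all times were 3, against 0 in lane 4 or lane 5 alone or without the 24 h libraries, 1 without the 12 h libraries, 5 with median centring, quantile normalization or the GC and length correction with the replicate block, 6 with that correction alone or without the 2 libraries that stood apart (chosen after seeing the data), 7 with only the groups compared, and 2 to 7 without 1 library. At 24 h they were 2, against 0 with only the groups compared, 1 in lane 4 alone, 4 with median centring or lane as a covariate, 5 with no filter, quantile normalization, the GC and length correction (also with the block) or without the 2 libraries, and 0 to 5 without 1 library. For 12.5 against 0 ug/ml they were 0, against 1 with no filter or the GC and length correction (also with the block), and 0 to 1 without 1 library. For 25 against 12.5 ug/ml they were 0, against 1 with the GC and length correction, with or without the block, and 0 to 4 without 1 library. At 12 h they were 0, against 1 with no filter. That call was HIST1H4G, above 0 only in the untreated 12 h library (0.27 FPKM), so it rests on 1 library. HIST1H4G was also the no-filter call for 12.5 against 0 ug/ml. It was among the no-filter calls between 12 and 6 h and for 25 against 0 ug/ml over all times. Between 24 and 6 h the members called were 5, against 0 in lane 4 alone and 3 to 6 without 1 library. Between 12 and 6 h they were 0, against 3 with no filter, 2 without the 2 libraries, 1 with quantile normalization or the GC and length correction (also with the block), and 0 to 6 without 1 library. For the effect at 24 h minus that at 6 h they were 0, against 1 with lane as a covariate, 2 with the GC and length correction (also with the block), and 0 to 1 without 1 library. Calls over all genes moved too: for 25 against 0 ug/ml over all times 9.47% of genes were called, against 0.0416% in lane 4 alone, 0.0832% in lane 5 alone, 0.383% without the 24 h libraries, 13.4% with only the groups compared and 17.8% with the GC and length correction, and at 24 h 16.5%, against 0.0999% with only the groups compared and 5.84% in lane 4 alone. The cause was not tested.

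The replication-dependent median for 25 against 0 ug/ml was -0.20, against -0.31 with a pseudocount of 0.1 and -0.31 in lane 4 alone. For 12.5 against 0 ug/ml it was -0.01, against -0.13 at a mean FPKM of at least 5 (1 member), -0.13 in lane 4 alone and 0.10 without the 24 h libraries. Between 24 and 6 h it was 0.02, against -0.14 at a mean FPKM of at least 5. Same-numbered libraries did not deviate together (correlations -0.183 to 0.128), so the numbers were not taken as pairs; the replicate block gave 2 calls over all times and 2 at 24 h. Lane fits that leave a comparison without a group gave no value. Low fragment numbers limit the replication-dependent members.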
